A study of Mus musculus with 2 samples.

Results

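Half-methylated windows were 1 kb stretches of the mouse autosomes in which unmodified and symmetrically methylated CpG dyads were both common while dyads that differed between their strands were scarce. They were chosen on the readout itself. The calls of both replicates were summed in each 1 kb window, and a window was kept if it held 10 or more covered CpG sites, if CC made up 35 to 65% of calls and MM at least 25%, and if the sum of the asymmetric states (MC, CM, HC, CH, HM, MH) was at most 12%. In these state names the first letter is the plus strand and the second the minus strand, with C for unmodified cytosine, M for 5-methylcytosine and H for 5-hydroxymethylcytosine. Of 417653 autosomal windows with 10 or more sites, 2668 met the rule, or 0.639%. They formed 2632 separate regions when windows up to 2000 bp apart were joined, and 2599 of these regions were a single window. The levels of CC, MM and the asymmetric states in these windows are therefore descriptions of a choice, and no test was made on them.

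The data came from SCoTCH-seq, which reads C, mC and hmC on both strands of the same DNA fragment, so that each call is 1 of 9 states of a CpG dyad. Genomic DNA was taken from E14 cells, a male mouse embryonic stem cell line, at 2 passages in serum with LIF on gelatin, and each passage is 1 replicate of the same untreated condition. Replicate 1 covered 13676795 CpG sites with a median of 10 calls each, and replicate 2 covered 4918612 sites with a median of 6. With 2 libraries of 1 condition there was no comparison between groups, so spreads are between 2 passages, and intervals are exact 95% intervals that cover counting error only.

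Genomic imprinting is the best known source of DNA that is methylated on 1 parental copy and unmodified on the other. At germline differentially methylated regions the mark is laid down in the egg or the sperm and is then kept through cell division by maintenance methylation, with the help of zinc finger proteins that bind the methylated copy. In a mixture of both copies each CpG of such a region would give unmodified and symmetric methylated dyads side by side. The files carry no information on which parental copy a call came from.

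Whether the windows could be called allele-like was checked on their single sites, and most windows went against that name. If both copies of a window differ as wholes, each site should sit near the level of the window. A site was called intermediate when CC was 20 to 80% of its calls. With the depth of each site and 1 common CC level per window, a binomial draw gives a median of 91.8% intermediate sites. The measured median was 25.0%, beside 21.05% over all autosomal windows with 10 or more sites. The measured median was 45.5% for the windows that replicate 2 alone gave and 40.9% for those with 20 or more sites. It was 10% or 41.7% when intermediate meant 30 to 70% or 10 to 90% CC. There were 123 windows, 4.61%, with 80% or more intermediate sites, and they are called uniform below. In 2054 windows, 77.0%, fewer than 50% of sites were intermediate, and these are called split; the remaining 491 lay between. The limits of 80 and 50% were set after the values were seen. Among the 34497 windows with the same range of CC and MM but more than 12% asymmetric calls, 20.9% were uniform. Among all 417653 autosomal windows with 10 or more sites 2.98% were uniform. CC and MM lay in that range in 8.90% of the 417653 windows, and in 7331 of the 12431 uniform ones.

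Stretches of 6 uniform windows are printed first because they show which CpG sites carried the intermediate levels. They are the 300 bases with most covered sites outside annotated untranslated regions, from the GRCm38.p6 reference, and capitals mark CpG sites at which CC was 20 to 80%. The order is the window at Peg13, a pair of windows upstream of H19, the window at Nnat, the window upstream of Meg3, and a window in Zfp13, which lay far from the imprinted genes listed here.
Peg13, chr15:72810000-72810299, plus strand: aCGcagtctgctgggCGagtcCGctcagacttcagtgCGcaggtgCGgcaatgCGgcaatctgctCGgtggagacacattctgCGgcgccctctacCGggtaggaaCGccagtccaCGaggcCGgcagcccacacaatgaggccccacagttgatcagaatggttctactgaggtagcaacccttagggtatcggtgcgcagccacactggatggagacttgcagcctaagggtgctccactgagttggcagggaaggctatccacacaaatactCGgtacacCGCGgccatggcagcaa
H19, first window, chr7:142580081-142580380, plus strand: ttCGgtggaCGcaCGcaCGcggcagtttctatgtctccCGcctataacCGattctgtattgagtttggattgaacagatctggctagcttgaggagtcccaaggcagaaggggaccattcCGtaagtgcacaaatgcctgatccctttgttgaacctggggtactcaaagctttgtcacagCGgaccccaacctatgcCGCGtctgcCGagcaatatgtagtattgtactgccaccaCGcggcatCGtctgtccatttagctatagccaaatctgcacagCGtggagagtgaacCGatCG
H19, second window, chr7:142581581-142581880, plus strand: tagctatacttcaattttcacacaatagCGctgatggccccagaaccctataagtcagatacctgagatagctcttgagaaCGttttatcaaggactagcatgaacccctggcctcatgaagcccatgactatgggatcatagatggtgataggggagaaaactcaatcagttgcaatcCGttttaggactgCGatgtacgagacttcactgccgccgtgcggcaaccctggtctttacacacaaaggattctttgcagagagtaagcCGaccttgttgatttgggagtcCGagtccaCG
Nnat, chr2:157559496-157559795, plus strand: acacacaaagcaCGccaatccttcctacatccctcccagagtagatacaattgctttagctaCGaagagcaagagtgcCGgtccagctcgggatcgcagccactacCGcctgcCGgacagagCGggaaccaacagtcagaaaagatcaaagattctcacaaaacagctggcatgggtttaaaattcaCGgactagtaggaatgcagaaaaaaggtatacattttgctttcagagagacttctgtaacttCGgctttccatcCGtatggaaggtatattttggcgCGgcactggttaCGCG
Meg3, chr12:109531641-109531940, plus strand: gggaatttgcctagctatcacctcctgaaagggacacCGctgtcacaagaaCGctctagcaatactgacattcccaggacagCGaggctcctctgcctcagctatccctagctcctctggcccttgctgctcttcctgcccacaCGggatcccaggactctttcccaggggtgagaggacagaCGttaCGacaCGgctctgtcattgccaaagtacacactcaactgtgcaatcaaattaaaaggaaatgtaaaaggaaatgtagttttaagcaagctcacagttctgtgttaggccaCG
Zfp13, chr17:23576077-23576376, plus strand: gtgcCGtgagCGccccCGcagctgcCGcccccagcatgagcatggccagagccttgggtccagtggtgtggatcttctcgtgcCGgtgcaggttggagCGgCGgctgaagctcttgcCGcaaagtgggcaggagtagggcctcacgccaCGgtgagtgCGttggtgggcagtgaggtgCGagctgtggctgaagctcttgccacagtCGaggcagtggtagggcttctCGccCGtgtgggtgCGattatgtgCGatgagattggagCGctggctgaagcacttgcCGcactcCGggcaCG
In the Peg13 stretch 15 of 16 covered sites were intermediate, and the median CC over them was 58.6%. The first H19 stretch had 16 of 17 and a median of 50.0%, and the second had 7 of 10, with the other 3 at low CC. All 8 covered sites of the Meg3 stretch and all 20 of the Zfp13 stretch were intermediate, with medians of 60% and 64.1%.

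Stretches of 3 split windows follow, chosen as those with the most changes between high and low CC among split windows with 15 or more sites on the chromosomes from which sequence was taken. Here capitals mark CpG sites with CC over 80%, and CpG sites in lower case were at lower CC or were not covered.
Nrip1, chr16:76317213-76317512, plus strand: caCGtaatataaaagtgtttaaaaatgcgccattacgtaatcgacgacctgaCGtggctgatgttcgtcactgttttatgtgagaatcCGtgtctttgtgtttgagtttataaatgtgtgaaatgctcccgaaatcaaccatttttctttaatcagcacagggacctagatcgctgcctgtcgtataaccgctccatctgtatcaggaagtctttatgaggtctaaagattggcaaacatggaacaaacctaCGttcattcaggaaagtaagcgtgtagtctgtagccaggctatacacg
Abcc4, chr14:118525342-118525641, plus strand: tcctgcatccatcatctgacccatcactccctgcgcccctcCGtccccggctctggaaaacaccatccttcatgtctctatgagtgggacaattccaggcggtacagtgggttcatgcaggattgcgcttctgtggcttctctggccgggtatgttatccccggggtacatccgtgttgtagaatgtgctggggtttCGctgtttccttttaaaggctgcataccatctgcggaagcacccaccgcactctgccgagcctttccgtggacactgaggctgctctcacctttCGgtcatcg
Gm46515, chr15:36639429-36639728, plus strand: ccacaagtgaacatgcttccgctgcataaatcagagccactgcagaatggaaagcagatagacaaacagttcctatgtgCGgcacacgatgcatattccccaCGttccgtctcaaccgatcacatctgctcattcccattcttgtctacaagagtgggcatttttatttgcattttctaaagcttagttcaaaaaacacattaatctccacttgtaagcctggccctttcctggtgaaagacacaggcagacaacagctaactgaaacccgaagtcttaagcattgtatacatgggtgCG
In the Nrip1 stretch 4 of 15 covered sites were over 80% CC and 10 were under 20%. The Abcc4 stretch had 3 over and 10 under among 14 sites, and the Gm46515 stretch had 3 over and 5 under among 8. Sites read as CC and sites read mostly as MM alternated over short distances in all 3.

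Nrip1 encodes a nuclear receptor corepressor, and its split window lay in an intron. As a whole this window looked half-methylated, with 38.6% CC, 52.4% MM and 8.66% asymmetric calls. It was shown because of its many changes between high and low CC. At 5, 215, 265, 301, 465 and 944 bp from the window start CC was 100.0% with 16, 14, 9, 19, 16 and 12 calls. The nearest covered neighbours of the site at 301 bp, at 278 and 342 bp, had CC of 0.0 and 7.69%. Of its 23 sites 2 were intermediate. Abcc4 encodes an efflux transporter, and its window showed the same form, with 35.3% CC, 54.1% MM and 10 changes between high and low CC along 19 clear sites.

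**Figure D1:**
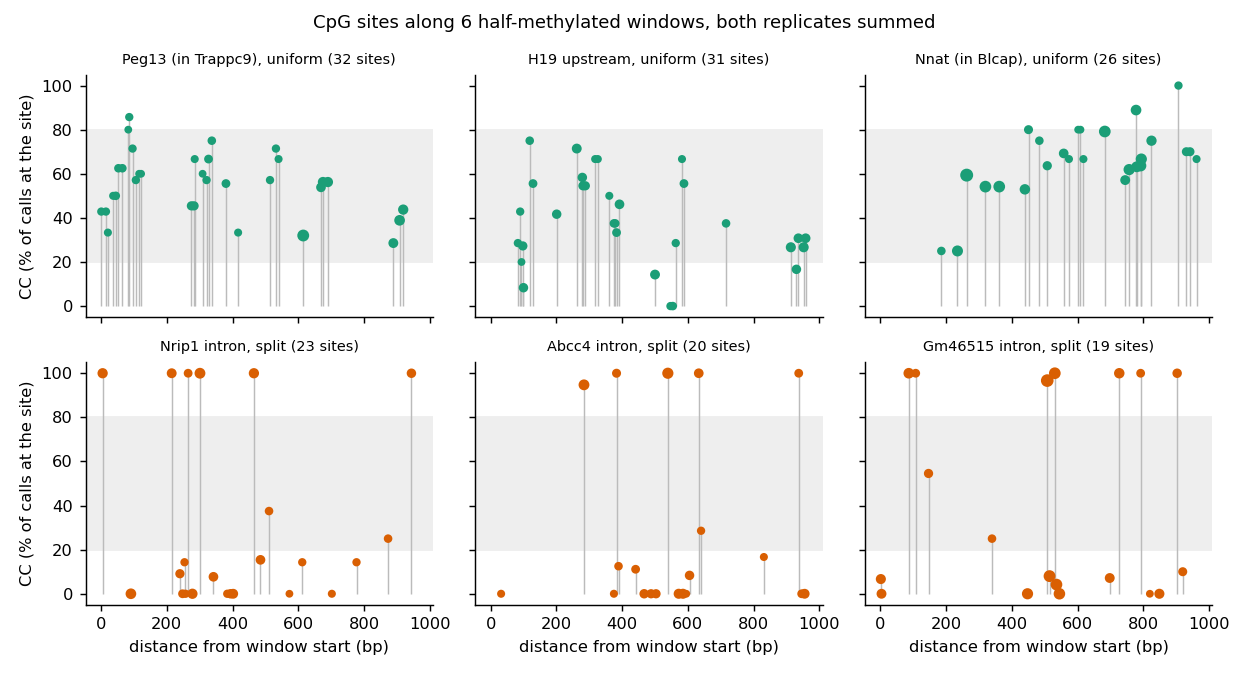
CC as a percentage of calls at each covered CpG site (vertical axis) against distance from the window start in bp (horizontal axis), with both replicates summed and larger points for more calls; the grey band is 20 to 80%. In the upper row, the windows at Peg13, H19 and Nnat, most sites lie in the band, while in the lower row, the windows in Nrip1, Abcc4 and Gm46515, most sites lie near 0 or 100% and alternate.

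Over all split windows, 36.7% of 25704 sites had CC over 80%, 42.9% had CC under 20% and 20.4% were intermediate. The next values describe sites picked for their CC in windows picked for few asymmetric calls, so a low share of other states follows in part from the choice. Every call was CC at 7634 of 9436 of them, or 80.9%, beside 58.8% of such sites in the half-methylated windows with more asymmetric calls and 87.6% in windows with CC of 90% or more. Asymmetric calls made up 1.07% at these sites, the level of sites with high CC in windows with CC of 90% or more (1.06%). At the sites with low CC of split windows they made up 16.9%.

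The order of the sites was also recorded. Going along a split window and counting changes between sites with CC over 80% and sites with CC under 20%, 549 windows (26.7%) had 1 change, as at the edge of an unmethylated stretch, 201 had 2 and 1296 had 3 or more, with a median of 3. Of the sites with high CC, 1535 (16.3%) had a site with low CC as the nearest covered neighbour on both sides, beside 22.9% of all sites and 31.9% of the sites with low CC in these windows. Adjacent sites of opposite kind were a median of 59.0 bp apart. In the windows that lay between uniform and split, 60.4% of the 417 windows with 4 or more clear sites had a single change. Those windows also had the largest share of steps in their surroundings: one neighbouring window had CC of 80% or more and the other 35% or less in 105 of 455 (23.1%), against 10.6% of split and 13.04% of uniform windows.

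**Figure D2:**
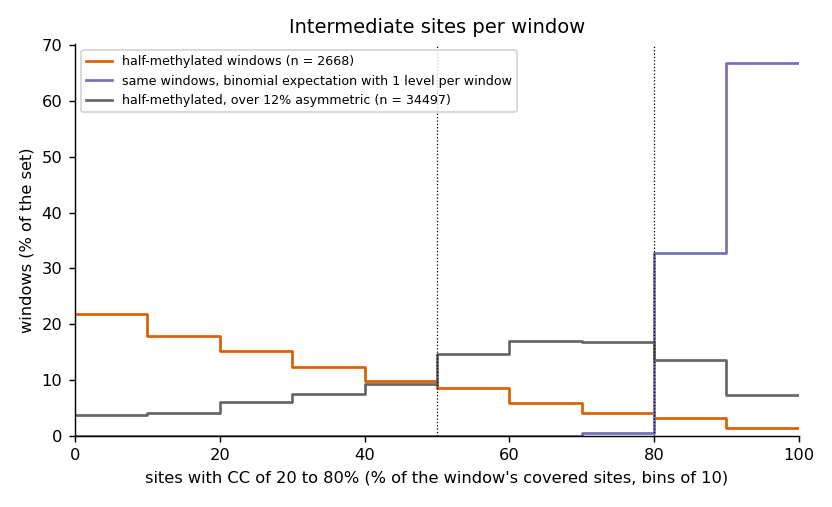
Share of windows (vertical axis, percent of each set) by the percentage of covered sites with CC of 20 to 80% (horizontal axis, bins of 10), with dotted lines at 50 and 80%. The 2668 half-methylated windows pile up at low values with a median of 25.0%, those with over 12% asymmetric calls have a median of 61.5%, and the binomial expectation with 1 level per window has a median of 91.8%.

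The site pattern was read again in replicate 2 for windows chosen and classed in replicate 1 alone, so that choice and reading used different libraries. In the 2010 windows that were split in replicate 1, 3478 sites with CC over 80% were covered in replicate 2, and 88.3% of them were again over 80% while 9 (0.259%) fell under 20%. Of 3303 sites with CC under 20%, 84.7% were again under 20% and 2 rose over 80%. In the 167 windows that were uniform in replicate 1, 470 of 661 intermediate sites (71.1%) were intermediate again. Of 1816 intermediate sites in the split windows, 891 (49.1%) were intermediate again and 789 (43.5%) fell under 20%. Most clear sites of the split windows thus kept their side in the other passage. How often clear sites of other windows do so was not measured.

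The windows themselves were recovered less well. Replicate 1 alone gave 2857 windows under the same rule, and 164 of them had 10 or more sites in replicate 2. There the median of CC went from 56.8 to 49.7%, and 113 windows (68.9%) were still within 35 to 65%, beside 58.1% of windows that were half-methylated in replicate 1 with more asymmetric calls and 12.2% of all windows. The median of the asymmetric states rose from 10.8 to 14.9%, and 51 windows (31.1%) were still at or under 12%, beside 8.38 and 38.5% in those sets. The limit on asymmetric calls alone was thus met less often than by windows in general, and more often than by half-methylated windows with more asymmetric calls. Windows in general include many with high CC. With both replicates summed, 97.3% of windows at 80 to 90% CC met this limit. At 40 to 50% and 50 to 60% CC 4.67 and 6.79% did. All parts of the rule were met again by 28 windows, or 17.1%, beside 4.71% of the 2529 half-methylated windows with more asymmetric calls and 1.16% of all 27244 windows with 10 or more sites in each replicate. Replicate 1 supplied 81.6% of the calls in the 2668 windows, which had a median of 11.0 covered sites in replicate 1 and 4.0 in replicate 2, so the choice was mostly made on replicate 1.

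**Figure D3:**
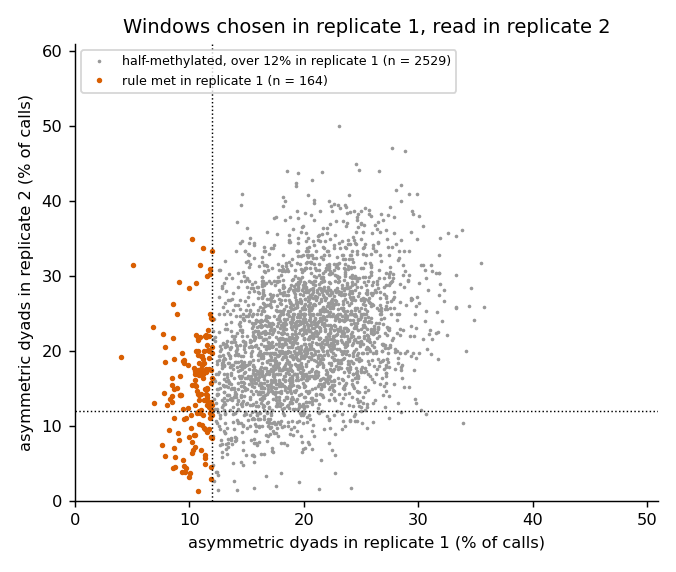
Asymmetric dyads as a percentage of calls in replicate 1 (horizontal axis) and replicate 2 (vertical axis) for windows with 10 or more sites in each; orange, the 164 windows that met the rule in replicate 1; grey, the 2529 half-methylated windows above 12%; dotted lines, 12%. Of the orange points 51 lie at or under 12% in replicate 2.

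The limit of 12% cut through a slope and did not part separate populations. At 11 to 12% asymmetric calls there were 942 half-methylated windows and at 12 to 13% there were 1169, and the most, 2946, lay at 19 to 20%. The windows just inside were in Galnt10 (48.9% CC), Npc2 (52.4%) and Dnah1 (37.7%), each with 12% asymmetric calls. The windows just outside were in or nearest to Cd244a, Tanc1 and Ets1, with 12.0047, 12.0172 and 12.0219%. Of these 6 windows only the one at Cd244a, with 80% intermediate sites, was uniform.

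**Figure D4:**
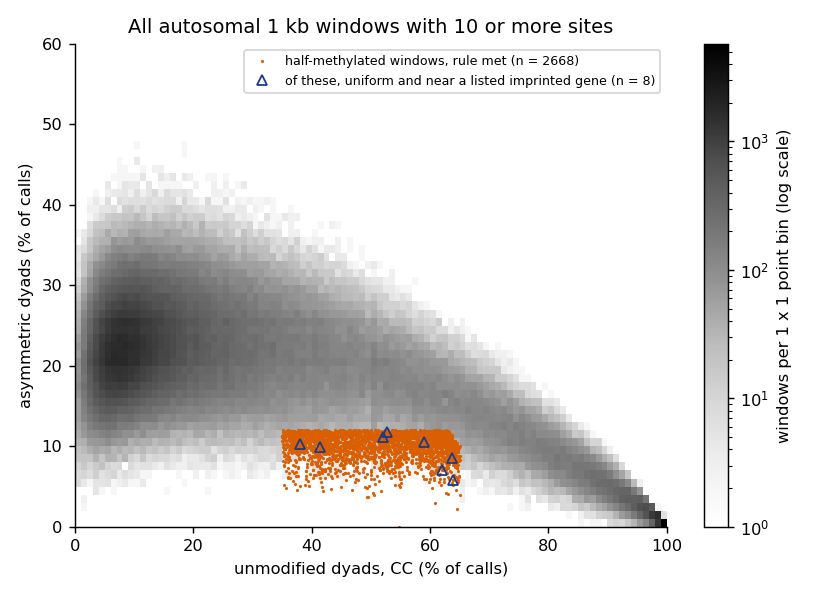
Asymmetric dyads (vertical axis, percent of calls) against CC (horizontal axis, percent of calls) for 417653 autosomal windows in grey, with a log scale of window number; orange points, the 2668 windows that met the rule; triangles, the 8 uniform windows near a listed imprinted gene. The orange points form the lower fringe of the cloud at 35 to 65% CC, and the triangles are spread within it.

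Location was not used by the rule. Of the 2668 windows, 9.07% had their centre within 1 kb of a start of a protein-coding transcript, 8.02% were exonic, 47.1% intronic and 35.8% intergenic, beside 8.16, 9.82, 49.7 and 32.3% of all windows. The split windows were intergenic in 37.8% and exonic in 6.72%, and the uniform windows were intergenic in 26.8% and exonic in 16.3%. The median GC content was 46.9%, against 46.6% over all windows, and repeats masked a median of 15.4% of their bases, against 14.1%. By chromosome the share of windows that met the rule ran from 0.437% on chromosome 16 to 0.931% on chromosome 7, with 0.862% on chromosome 14 and 0.818% on both chromosomes 8 and 15.

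Imprinted genes were taken from a list of 70 known ones. Within 50 kb of a listed gene lay 16 of the 2668 windows, 0.600% (0.343 to 0.972%), beside 0.496% of all windows, so with both replicates summed the share was close to that of windows in general. It was 1.56% among the 320 windows that replicate 2 alone gave. Of the 123 uniform windows 8 were near a listed gene, 6.50% (2.85 to 12.4%), while 2 of 491 windows in between and 6 of 2054 split windows were, 0.407 and 0.292%. Uniform windows above the limit on asymmetric calls were near listed genes in 28 of 7208 cases, 0.389%. Windows with more sites were also more often near the list: 7 of 129 with 20 or more sites, 5.43% (2.21 to 10.9%), beside 0.589% of all windows with as many sites. Neighbouring windows at H19 and at Peg13 are among these 7, and the H19 pair is among the 8 uniform windows. The intervals treat such neighbours as separate.

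The H19-Igf2 cluster on chromosome 7 held 3 of the 8 uniform windows near listed genes. H19 is a non-coding RNA made from the maternal copy, and the control region upstream of it is methylated on the paternal copy and bound by CTCF on the other. The window that starts 1857 bp upstream of H19, chr7:142580000-142580999, had 31 sites and 302 calls, with 38.1% CC, 51.7% MM and 10.3% asymmetric calls, and 83.9% of sites were intermediate. CC in replicates 1 and 2 was 40.1 and 29.1%. The next window, 2857 bp upstream, had 21 sites with 41.3% CC, 48.7% MM and 9.94% asymmetric calls, and CC was 39.3 and 48.5% in the replicates. The order of the replicates was thus not the same in both windows. The third window, chr7:142610000-142610999, lay 31857 bp from H19 in an intron of Gm33148, with 12 sites, 52.7% CC and 11.8% asymmetric calls, and was covered in replicate 1 alone.

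The core of the CTCF motif was searched on both strands after these windows had been seen, written as CCGC, 2 bases of any kind, GG, 1 base of any kind and GGCAG. It matched at 3 places in the pair of windows upstream of H19, all on the minus strand, at chr7:142580309-142580322, chr7:142580764-142580777 and chr7:142581790-142581803; the first and the last lie in the stretches printed above. Such a match was present in 223 of all windows (0.0534%) and in 5 of the 2668 (0.187%), and 2 windows in all had more than 1 match, of which the first H19 window was one. In the last match all 3 CpG sites were mostly methylated, with MM of 83.3, 100.0 and 83.3% of 6, 5 and 6 calls, although the window as a whole was half-methylated. In the first match 1 site was covered, with 66.7% CC of 6 calls, and in the second none was. With so few calls these site levels are coarse.

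At Peg13, a paternally expressed non-coding RNA inside Trappc9 whose promoter is methylated on the maternal copy, 2 neighbouring windows met the rule. The right one, chr15:72810000-72810999, had 32 sites and 296 calls with 52.0% CC, 36.8% MM and 11.1% asymmetric calls, and 96.9% of sites were intermediate. CC was 55.3% in replicate 1 and 32.6% in replicate 2. Its left neighbour had 33 sites with 41.3% CC, 49.7% MM and 9.01% asymmetric calls, and 63.6% of its sites were intermediate. Outside the pair CC was 28.2% in the window to the left and 21.1% in the window to the right.

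Nnat encodes a small membrane protein of the developing brain, lies in an intron of Blcap and is expressed from the paternal copy. Its window, chr2:157559000-157559999, had 26 sites and 377 calls, with 63.7% CC, 27.3% MM and 8.49% asymmetric calls, and 92.3% of sites were intermediate. The replicates were close, with CC of 63.7 and 63.5%. The window upstream of Meg3, a maternally expressed non-coding RNA, chr12:109531000-109531999, lay 9002 bp from the gene and overlapped an exon of Gm27528. It had 13 sites, all intermediate, with 59.0% CC, 30.4% MM and 10.6% asymmetric calls, and CC of 59.7 and 56.3% in the replicates. These windows had nearly the same CC in both passages.

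Mest, a hydrolase gene expressed from the paternal copy, had a uniform window in an intron, chr6:30739000-30739999, with 11 sites, 63.9% CC, 30.4% MM and 5.76% asymmetric calls, and CC of 63.8 and 64.1% in the replicates. A second window, chr6:30733000-30733999 at a Mest promoter, had 20 sites, 60.4% CC and 75% intermediate sites. Slc38a4, an amino acid transporter gene, had a uniform intronic window, chr15:97048000-97048999, with 11 sites, 61.9% CC, 31.0% MM and 7.08% asymmetric calls, with CC of 64.8 and 52.0% in the replicates. Of the germline regions listed, 6 of 22 thus had a uniform window within 50 kb of a gene body. Such a window need not lie on the differentially methylated region.

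The other windows near listed genes were split. In Airn, the antisense RNA of the Igf2r cluster, the window was chr17:12770000-12770999. It lay next to the 5′ end of Igf2r at 12769664, while Airn starts at 12741311. It had 45.0% CC and 46.4% MM over 16 sites, but only 37.5% of sites were intermediate. There was 1 change between high and low CC, and the neighbouring windows had 98.3 and 10.4% CC. In Herc3, the host of Nap1l5, the window chr6:58907000-58907999 held the Nap1l5 5′ end at 58907076. It showed the same form over 26 sites, with 58.9% CC, 1 change and neighbours at 72.1 and 2.5%. Slc22a3 had 18 sites at chr17:12507000-12507999 with 63.7% CC and 1 change. The remaining 3 were at H13, where 1 window lay 22462 bp away at Rem1 and had no intermediate site and 6 changes and the other had 62.3% CC, and at Inpp5f, 8575 bp away in Mcmbp with 37.5% CC.

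For 12 of the 22 germline regions no window within 50 kb met the rule. The nearest windows given here are nearest in value, anywhere within 50 kb of a gene body. They need not lie on the differentially methylated region. Closest to the rule was Plagl1, a zinc finger gene, with 26 sites, 61.3% CC, 26.1% MM and 12.1% asymmetric calls, just over the limit. Grb10 followed with 54.8% CC and 13.7% asymmetric calls and 92.9% intermediate sites. The Plagl1 window lay inside the gene. The Grb10 window began at chr11:11880000, outside the gene, which spans 11930508 to 12038683. Of the nearest windows of these 12 regions only the one of Grb10 was uniform. Next came Gnas and Rasgrf1, each with 70% intermediate sites. In the nearest windows of Impact, Cdh15, Snrpn, Peg10 and Kcnq1ot1 only 6.67, 9.09, 20, 40 and 41.7% of sites were intermediate. Rasgrf1 had 13.9%, Impact 14.4% and Zrsr1 14.9% asymmetric calls in their nearest windows. Zdbf2 had 16.4%, Peg3 16.8%, Snrpn 17.9%, Peg10 20% and Kcnq1ot1 20.1%. Kcnq1ot1 also missed on CC, with 31.9%. Gnas missed on MM, with 19.8%, and on asymmetric calls, with 15.3%, and Cdh15 missed on CC and MM, with 67.5 and 23.7%. Snrpn had only 4 windows with 10 or more sites in reach.

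At the 5′ ends of the same genes, 1 kb to either side, most values were far from half-methylated. Of 30 genes with 5 or more covered sites 17 had CC of 80% or more, 8 lay between 65 and 80%, 3 between 35 and 65% and 2 below. Peg10 had 93.9% CC over 79 sites, Zrsr1 94.2% over 83, Kcnq1ot1 91.4% over 65 and Peg3 85.3% over 61. Peg13 stood out with 44.3% CC, 44.8% MM and 83.6% intermediate sites over 61 sites, and Nnat had 68.3% CC with 75.6% intermediate sites. The gene's 5′ end is not always the differentially methylated region, and which of these ends are was not checked. These values therefore describe the annotated starts.

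Away from the list there were 115 uniform windows. The one with the most sites, 39, was in an exon of Zfp13, a zinc finger gene, at chr17:23576000-23576999, with 59.7% CC, 30.5% MM, 9.52% asymmetric calls and 92.3% intermediate sites, and CC of 60.4 and 55.3% in the replicates. Its neighbours were at 17.8 and 16.7% CC. Next by number of sites was Mocos, a molybdenum cofactor sulfurase gene, with 30 sites, 36.2% CC and 51.5% MM between neighbours at 26.9 and 25.9%. With 22 sites each followed a window 17518 bp from Lgi2, with 59.3% CC between neighbours at 4 and 29.6%, and windows at Zfp740 and Smg8. Zfp740 had 62.3% CC and neighbours at 60.8 and 68.5%, and Smg8, a regulator of nonsense-mediated decay, had 53.0% CC between neighbours at 25.7 and 99.7%. Both neighbours were at 20 to 80% CC for 56 of the 107 uniform windows away from the list with both neighbours covered, 52.3%, and for 27.2% of the 1730 split windows with both neighbours covered. That share was 37.2% for uniform windows above the limit on asymmetric calls.

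Away from the list 31 regions held more than 1 window, 3 with 3 windows and 28 with 2. In 28 of the 31 no window was uniform. Named here are the 12 with the most windows and, among the regions of 2, the most sites. Next to Ccdc65, in Slc15a5, a solute carrier gene, and in Rin2, each with 3 windows, CC was 45.5 to 55.8% at Slc15a5, 56.4 to 63.5% near Ccdc65 and 43.8 to 52.8% at Rin2, and at most 36.4% of sites in any of these windows were intermediate. The other 9 regions had 2 windows each, at Gm42416, Atrnl1, Peli2, Abcc8, Sfrp5, Ift22, Adgrg1, 6330411D24Rik and Lsm11. Of these 12 only the region 7748 bp from Sfrp5, a secreted inhibitor of WNT signalling, held a uniform window, with 92.9% intermediate sites in one and 66.7% in the other. At Atrnl1 the values were 6.67 and 10.5%. Among the regions with fewer sites, 1 in Trmt13, a tRNA methyltransferase gene, had uniform windows throughout, with 83.3 and 81.8% intermediate sites and CC of 54.3 and 61.9%.

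The asymmetric states that remained were not all at the level of the controls. In the 2668 windows MC and CM together made up 5.88% ± 0.424 of calls (SD, n = 2), HC and CH 2.44% ± 0.145, HM and MH 1.71% ± 0.467, and HH 0.234% ± 0.132. For comparison, methylated lambda DNA and unmethylated pUC19 DNA of the same libraries were mixed on paper at the same ratio of MM to CC. This mix gave MC and CM of 1.64 and 3.06% in replicates 1 and 2, below the windows' 5.58 and 6.18%. HC and CH were 0.0847 and 0.0861% in the mix and 2.55 and 2.34% in the windows. HM and MH were 1.65 and 0.153% in the mix against 2.04 and 1.38%, so in replicate 1 these states were close to the level of the controls. HH was at 0.328 and 0.140% in the windows and at 0.465 and 0.0179% in the mix, so in replicate 1 it lay below the level of the controls. Of the orientations of hemimethylation MC was slightly above CM in both replicates, with 2.83 against 2.75% in replicate 1 and 3.23 against 2.95% in replicate 2. The mix had the same order, with 0.859 against 0.785% and 1.60 against 1.46%.

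**Figure D5:**
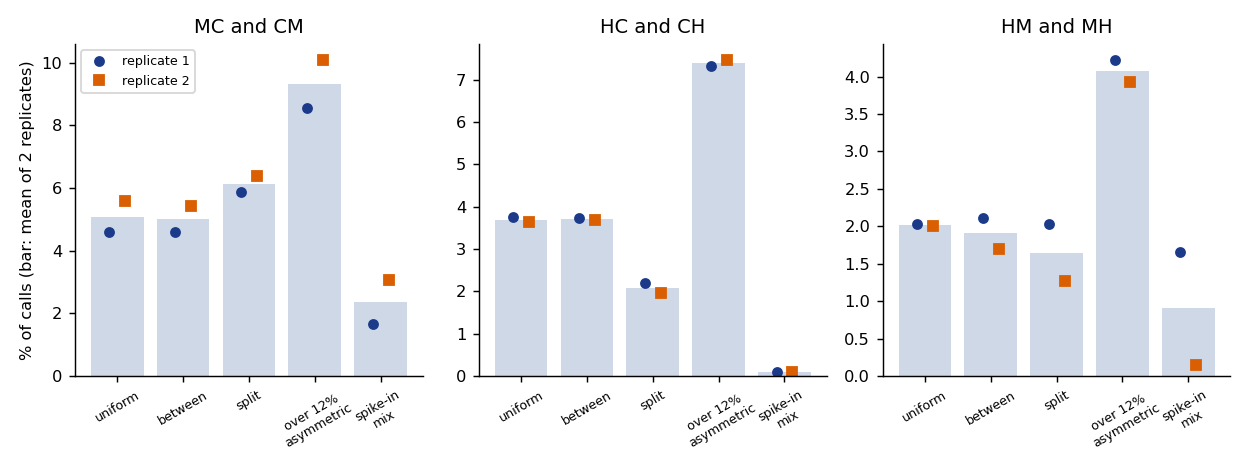
Percentage of calls in 3 groups of asymmetric states for uniform, between and split half-methylated windows, half-methylated windows above 12%, and the mix of methylated lambda and unmethylated pUC19 DNA; bars are means of 2 replicates, circles replicate 1 and squares replicate 2. HC and CH are at 3.76 and 3.63% in uniform and at 2.19 and 1.95% in split windows, and under 0.1% in the mix.

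Uniform and split windows stood in the same order in both replicates, while the windows in between were close to the uniform ones. HC and CH, in which hmC is paired with unmodified C, were at 3.76 and 3.63% in uniform windows and at 2.19 and 1.95% in split windows, while MC and CM were at 4.58 and 5.58% in uniform and at 5.87 and 6.39% in split windows. Half-methylated windows above the limit had 7.32 and 7.47% HC and CH. Within split windows, MC and CM made up 10.6% and HC and CH 2.88% at sites with low CC. At sites with high CC they made up 0.376 and 0.593%. Sites were sorted by their own CC, so few other states at sites with high CC follow from the sorting. The windows above the limit had the same order, with 14.4 and 7.79% at sites with low CC and 0.917 and 1.38% at sites with high CC. At intermediate sites of uniform windows HC and CH were at 3.94% and MC and CM at 4.97%, and at intermediate sites of the windows above the limit at 8.76 and 8.60%.

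The 8 uniform windows near listed genes had HC and CH of 2.23 and 1.49% in the replicates, and the 115 others 3.92 and 3.84%. Over both replicates these were 39 of 1862 calls, 2.10% (1.49 to 2.85%), and 686 of 17555 calls, 3.91% (3.63 to 4.21%). The value of 1.49% in replicate 2 rests on 5 of 336 calls. Single windows near listed genes differed. The uniform Peg13 window had no HC or CH among 296 calls, and the Gm33148 window had 5.46% HC and 0.909% CH of 110 calls. HM and MH were lower as well near listed genes, at 1.25 and 0.595% in the replicates against 2.12 and 2.14%. The mix of lambda and pUC19 DNA gave 1.56 and 0.165% for the windows near listed genes and 1.45 and 0.146% for the others. In replicate 1 the windows near listed genes thus lay below the level of the controls. The lower value near listed genes rests on 2 calls, and over both replicates the levels were 1.13% (0.700 to 1.72%) and 2.12% (1.92 to 2.35%). MC and CM were at 6.23% (5.18 to 7.43%) against 4.62% (4.31 to 4.94%). The order of MC and CM turned round between the replicates, with 6.62% near and 4.36% away from listed genes in replicate 1 and 4.46 and 5.69% in replicate 2. Calls of 1 window share its cells and its copies of DNA, so the intervals are narrower than the spread between windows.

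The letters TGCCGC, which ZFP57 is known to bind when methylated, were searched on both strands. They were present in 14.02% of the 2668 windows and 14.6% of all windows, and in 21 of 123 uniform windows, 17.1%. The share was also 17.1% in the 7208 uniform windows above the limit on asymmetric calls. Of the 8 uniform windows near listed genes 4 held them. The first H19 window and the left window at Peg13 had 3 each, and the second H19 window, the right window at Peg13, the Nnat window and the window at Herc3 had 2 each. The windows at Mest, Meg3, Slc38a4 and Airn had none of these letters within their 1 kb.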

How the data were processed

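SCoTCH-seq libraries of 2 E14 passages were analysed. The authors selected read pairs by their hairpin adapters, used BSBolt for alignment to GRCm38, marked and dropped duplicates, and called a state per CpG dyad. The submitters' processing notes name cutadapt 4.6 and Picard 3.1.1, and the version of SAMtools is given in the paper. The authors deposited counts of each state at sites with at least 5 calls in a replicate outside blacklisted regions, and a percent per state, which equalled count over depth throughout. No correction by spike-ins was applied. Sites were placed by the C57BL/6J reference. E14 cells derive from a 129 strain, and a T in their DNA at a reference C would be read as unmodified; whether any CC site is such a difference was not tested.

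Counts were summed per window in Python 3.11.15 (pandas 2.3.3, NumPy 2.4.6), intervals came from SciPy 1.17.1, and Matplotlib 3.10.9 made the plots. All positions fell on the C of a CpG in GRCm38.p6. Genes came from GENCODE vM21. The imprinted genes were listed from general knowledge. The windows and lists were chosen with earlier results of these data known. Named genes were the germline regions of the list and the 12 regions with the most windows away from it. The 3 windows on each side of the 12% limit were named too. Named after their values were seen were the windows at Slc22a3 and Trmt13 and the uniform windows with most sites. So were the split windows shown and those in the closing section. Chromosome 18 was left out when the split windows shown and the Zfp13 stretch were chosen. Intervals are exact Clopper-Pearson at 95% and cover counting error only. No test between samples was possible. The site classes were tested on simulated data. Alternatives changed the replicates, the limits, the minimum of sites or calls, the weighting and the grid.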

Additional observations from a re-analysis of the deposited data

How the results depend on the processing

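Leaving out each replicate in turn gave 320 windows (replicate 2 alone) to 2857 (replicate 1 alone), 0.525 to 1.56% of them near listed imprinted genes, a median of 10 to 10.45% asymmetric calls and a median of 30 to 45.5% intermediate sites. The number of windows went from 2668 to 1086 with at most 10% asymmetric calls, to 7154 with at most 15%, to 1713 with CC of 40 to 60%, to 129 with 20 or more sites, and to 633 when sites needed 10 or more calls. With 20 or more sites 5.43% were near listed genes and the median of intermediate sites was 40.9%. The median asymmetric level, bounded by the rule, was 8.85 and 12.8% with limits of 10 and 15%. The median of intermediate sites was 10% when intermediate meant CC of 30 to 70% and 41.7% when it meant 10 to 90%. Shifted or 2 kb windows and equal weight per site moved no result beyond 1.5 times for the count or beyond the spread between single replicates for the others. That spread is wide for the share near listed genes, which was 0.382% with 2 kb windows. It was 0.948% when sites needed 10 or more calls. No paired analysis was possible because only 1 group was measured. Depth limits single sites, since a site with 5 calls has 6 possible CC levels.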

Other observations

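Chromosome X was left out by the rule and is present once in male cells. Of its 1274 windows with 10 or more sites 14 met the other parts of the rule, 1.10% (0.602 to 1.84%), and 4 of these were uniform and 6 split, with a median of 62.1% intermediate sites. Half-methylated windows of any asymmetric level made up 8.32% of windows on X and 8.90% on the autosomes, and 27.4 and 19.7% of them were uniform.

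A few windows had far more calls per site than the median of 11.8. The window 25125 bp from Ccr1, a chemokine receptor gene, had 118.0 calls per site over 10 sites, with 37.0% CC, 53.3% MM and no intermediate site, and the window 7194 bp from Cd244a, a natural killer cell receptor gene, had 88.9 calls per site over 12 sites, with 53.5% CC and 83.3% intermediate sites. The window in Ren1 had 30.7. The fewest asymmetric calls were in a window 140022 bp from 4930596D02Rik, with none among 64 calls, which allows a share of up to 4.69% by a floor of 3 counts, followed by windows 44714 bp from Irx5 with 2.15% and 45785 bp from Tmem18 with 2.94%. All 3 were split.

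In windows with MM of 80% or more, sites with CC over 80% were rare, 106 of 109705 (0.0966%). Every call was CC at 93.4% of them, against 80.9% in the split half-methylated windows.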
